A study of Homo sapiens with 16 samples.

Results

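The genes of the proteasome were described in MOLM13 and K562 cells exposed to the compound Ro 08-2750 (Ro) or to its solvent DMSO. The members are the rows of the deposited count table whose gene symbol begins with PSM, a letter from A to G and a digit. The rule found 54 of 25221 rows. Of these, 48 encode proteasome subunits, activators, an inhibitor or assembly chaperones, and 6 are other genes that only share the prefix (PSMC3IP and rows for antisense or noncoding RNAs). The 48 genes comprised 8 of the alpha ring, 8 of the beta ring, 3 of the immunoproteasome, 9 of the base, 8 of the lid, 5 activators or inhibitors and 7 chaperones.

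The proteasome degrades proteins tagged with ubiquitin. Its core is a barrel of stacked rings, with alpha subunits that gate the ends and beta subunits that cut peptides inside. A cap of base and lid recognises, unfolds and feeds in the substrate, and alternative caps (the activators) can replace it. Dedicated chaperones assemble the rings and the base, and in immune cells or after interferon 3 catalytic subunits are exchanged for the immunoproteasome forms PSMB8, PSMB9 and PSMB10.

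MOLM13 is a human acute myeloid leukemia line of monocytic type, and K562, also human, derives from the blast crisis of a chronic myeloid leukemia and has erythroid features. Ro is described by the study as a ligand of the RNA-binding protein MSI2. Each line was treated for 4 h with DMSO or with 20 μM Ro, with DMSO at 0.1% in all groups. The 4 groups held 4 libraries each, numbered as pairs 1 to 4 in the sample titles. Cells were at passage 8 to 12 for MOLM13 and 12 to 18 for K562, so line and passage range cannot be told apart. RNA was read at the 3′ ends of mRNAs, so counts do not scale with transcript length and no length correction was made. Levels are given as CPM, the count divided by the TMM-scaled library size over all 16 libraries and scaled to 1e+06. No source says that the 4 libraries of a group came from separate cultures, so p-values measure only the spread between these libraries.

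Library totals ranged from 3143129 counts (K562 DMSO 2) to 43571060 counts (K562 DMSO 1). The 48 proteasome genes took 0.371% to 0.589% of the counts in MOLM13 and 0.805% to 0.959% in K562. A count of 3 was taken as the lowest that can be told from 0, for counting error only. On unscaled totals it was 0.954 CPM in the smallest library and 0.0689 CPM in the largest. On the TMM-scaled sizes used for levels, it was 0.872 CPM in the smallest library. A single transcript, LOC100507412, held 0.269% to 24.3% of a library. Of the 10 markers fixed for MOLM13, none was at 0 there, and their summed level was 1236 to 2441 CPM in MOLM13 and 147 to 297 CPM in K562. The 10 K562 markers summed to 1533 to 2920 CPM in K562 and 6.35 to 9.70 CPM in MOLM13, with HBE1 at 0 in both lines and HBG1 at 0 in MOLM13. In DMSO, 8 of the 10 MOLM13 markers were higher in MOLM13 and 8 of 9 tested K562 markers lower. Among all genes 21.1% were higher and 20.3% lower.

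3 sets of libraries stood apart. Both libraries of MOLM13 pair 4 had the highest summed proteasome level of their group, 6743 CPM in DMSO and 6253 CPM in Ro, against 4271 to 4831 CPM and 4389 to 4665 CPM in the other pairs. K562 DMSO 4, with 4383241 counts, was low for single subunits such as PSMC1. K562 DMSO 2 was the smallest library. Values without them are given for some named counts, medians and members that depend on them. They are not given for genes outside the proteasome, and the interaction was not refitted without these libraries.

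4 members, the alpha subunits PSMA2, PSMA3 and PSMA6 and the base scaffold PSMD2, were listed at 0 in all 16 libraries. Every cell is known to use these genes, so a listed 0, also that of HBE1 or TAP1, is not a measure of absent expression, and whether it was lost in annotation or counting was not tested. PSMB11, the beta subunit of the thymus, had at most 3 counts and PSMB10 at most 14 counts in any library. These 6 failed the minimum of 10 counts in 4 of 8 libraries, so 42 of the 48 genes were tested in each comparison below unless stated otherwise. Of the 48 genes, 20 overlap another RefSeq gene, and in 7 the overlap reaches the last 1000 bases, where this assay reads. Among those 7 are PSMC1 (with NRDE2) and PSMC2 (with SLC26A5), and because the strand setting of the counting is not given in the sources used here, reads of such neighbours cannot be told apart.

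Promoter windows run from 250 bases before to 50 bases after the RefSeq start on GRCh38.p14. They are shown for 5 of the members named below: the chaperones with the smallest p-values for Ro in MOLM13 and the immunoproteasome subunit PSMB9. Capitals mark matches, on either strand, to TGACNNNGC (the core of the antioxidant response element), CCGGAAG (an ETS motif) or CCAAT.
PSMG2, chr18:12658488-12658787, plus strand: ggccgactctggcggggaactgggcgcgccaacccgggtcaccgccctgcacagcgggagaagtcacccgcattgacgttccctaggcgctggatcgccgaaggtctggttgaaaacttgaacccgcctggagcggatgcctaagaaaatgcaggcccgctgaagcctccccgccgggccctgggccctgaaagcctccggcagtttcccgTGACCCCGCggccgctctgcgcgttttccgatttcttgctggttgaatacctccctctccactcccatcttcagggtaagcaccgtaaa
PSMG1, chr21:39183402-39183701, minus strand: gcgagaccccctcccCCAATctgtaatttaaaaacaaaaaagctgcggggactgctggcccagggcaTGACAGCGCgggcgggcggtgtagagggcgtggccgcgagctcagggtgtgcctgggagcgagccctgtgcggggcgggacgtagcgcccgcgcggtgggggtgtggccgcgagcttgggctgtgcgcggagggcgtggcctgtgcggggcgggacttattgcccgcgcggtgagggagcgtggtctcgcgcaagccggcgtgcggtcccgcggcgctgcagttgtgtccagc
PSMG4, chr6:3258697-3258996, plus strand: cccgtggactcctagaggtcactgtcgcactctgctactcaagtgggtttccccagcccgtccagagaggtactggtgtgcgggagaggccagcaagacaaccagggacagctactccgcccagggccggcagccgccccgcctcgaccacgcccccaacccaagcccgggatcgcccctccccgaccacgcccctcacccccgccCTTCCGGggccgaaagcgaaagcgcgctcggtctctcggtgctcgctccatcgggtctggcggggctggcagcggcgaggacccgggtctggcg
PSMD5, chr9:120842873-120843172, minus strand: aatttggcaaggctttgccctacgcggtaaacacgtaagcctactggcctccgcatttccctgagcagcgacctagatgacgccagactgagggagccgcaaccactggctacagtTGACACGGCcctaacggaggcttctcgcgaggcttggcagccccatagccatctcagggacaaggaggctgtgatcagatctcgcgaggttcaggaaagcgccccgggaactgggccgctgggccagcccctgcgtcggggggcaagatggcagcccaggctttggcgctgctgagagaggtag
PSMB9, chr6:32853942-32854241, plus strand: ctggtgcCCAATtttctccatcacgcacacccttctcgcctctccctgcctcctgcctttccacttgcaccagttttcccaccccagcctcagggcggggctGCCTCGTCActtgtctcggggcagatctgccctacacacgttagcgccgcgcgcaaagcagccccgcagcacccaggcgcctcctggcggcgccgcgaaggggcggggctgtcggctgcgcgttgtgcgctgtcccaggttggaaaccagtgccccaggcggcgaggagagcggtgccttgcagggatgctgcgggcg

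TGACNNNGC began 39 bases before the first of the 2 starts of PSMG2 (the window of the other, chr18:12702792-12703091, held no match to the 3 motifs), 183 bases before in PSMG1 and 134 bases before in PSMD5, all on the gene's strand. PSMB9 held it on the other strand 148 bases before the start, and PSMG1 and PSMB9 also held CCAAT. Neither window of PSMB8, not shown, held a match to the 3 motifs. The PSMG4 window held CCGGAAG on the other strand, 44 bases before the start, and no TGACNNNGC. RefSeq windows were found for 42 of the 48 genes, 51 windows in all because some genes have more than 1 start. TGACNNNGC was in 15 of the 51 (29.4%) and in 13.3% of all 35116 windows in the table. CCGGAAG was also in 15 (29.4%), against 10.3% of all windows, and CCAAT was in 20 (39.2%), against 34.6%. These are letter matches, not measured sites.

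The first comparison asked how the levels of proteasome genes differ between MOLM13 and K562 without Ro. Of the 42 genes tested, 20 differed between the 8 DMSO libraries by the quasi-likelihood test of edgeR, Benjamini-Hochberg adjusted over 15268 genes. 4 were higher in MOLM13, the immunoproteasome subunits PSMB8 and PSMB9, the activator PSME1 and the base ATPase PSMC2. 16 were lower in MOLM13, spread over the alpha ring (2 of 5), beta ring (5 of 7), lid (4 of 8), activators (2 of 5) and chaperones (3 of 7). None of the 8 base genes was called lower, although 6 of them were lower in the estimate. As shares, 9.52% of the members were higher against 21.1% of all genes tested, and 38.1% were lower against 20.3% of all genes tested. The median log2 fold change of the 42 genes was -0.50, and that of all genes tested was -0.00. In bulk RNA, a lower level per cell and a smaller share of expressing cells cannot be told apart.

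PSMB8, the counterpart of the chymotrypsin-like subunit PSMB5, was at 93.3, 76.8, 101 and 170 CPM in MOLM13 DMSO pairs 1 to 4. In K562 DMSO it was at 0.827, 0, 0.401 and 1.58 CPM, from 37, 0, 10 and 9 counts. The groups did not overlap, and PSMB8 was 155-fold higher in MOLM13 (log2 fold change 7.28 ± 0.49 SE, adjusted p = 6.92e-08 in edgeR). The K562 level thus rests on few counts, and in the smallest library on none. PSMB9, the counterpart of the caspase-like subunit PSMB6, was at 30.1, 24.6, 28.2 and 63.6 CPM in MOLM13 DMSO and at 2.62, 1.74, 1.92 and 3.86 CPM in K562 DMSO. It was 14.7-fold higher in MOLM13 (log2 fold change 3.88 ± 0.38 SE, adjusted p = 1.99e-06 in edgeR), and again no K562 library reached a MOLM13 library. PSMB10, the counterpart of the trypsin-like subunit PSMB7, was at 0.355 to 0.433 CPM in MOLM13 DMSO and 0 to 0.313 CPM in K562 DMSO and was too low to test in this comparison.

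The constitutive catalytic subunits were ordered differently. PSMB5 was at 114, 106, 118 and 140 CPM in MOLM13 DMSO and at 305, 345, 227 and 329 CPM in K562 DMSO, without overlap, and was 2.5-fold lower in MOLM13 (log2 fold change -1.32 ± 0.21 SE, adjusted p = 2.21e-04 in edgeR). PSMB6 was at 53.5 to 80.6 CPM in MOLM13 DMSO and 86.4 to 143 CPM in K562 DMSO and was 1.77-fold lower in MOLM13 (log2 -0.82 ± 0.23 SE, adjusted p = 0.0106 in edgeR). PSMB7 overlapped, at 199 to 288 CPM against 169 to 359 CPM, and did not pass the test (log2 -0.22 ± 0.25 SE, adjusted p = 0.534 in edgeR). In the summed counts of these 6 genes, the immunoproteasome forms took 23.1%, 22.1%, 24.3% and 31.5% in the MOLM13 DMSO libraries. In the K562 DMSO libraries they took 0.499%, 0.240%, 0.409% and 0.921%. The Ro libraries gave 19.4% to 31.8% in MOLM13 and 0.196% to 0.679% in K562.

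**Figure D1:**
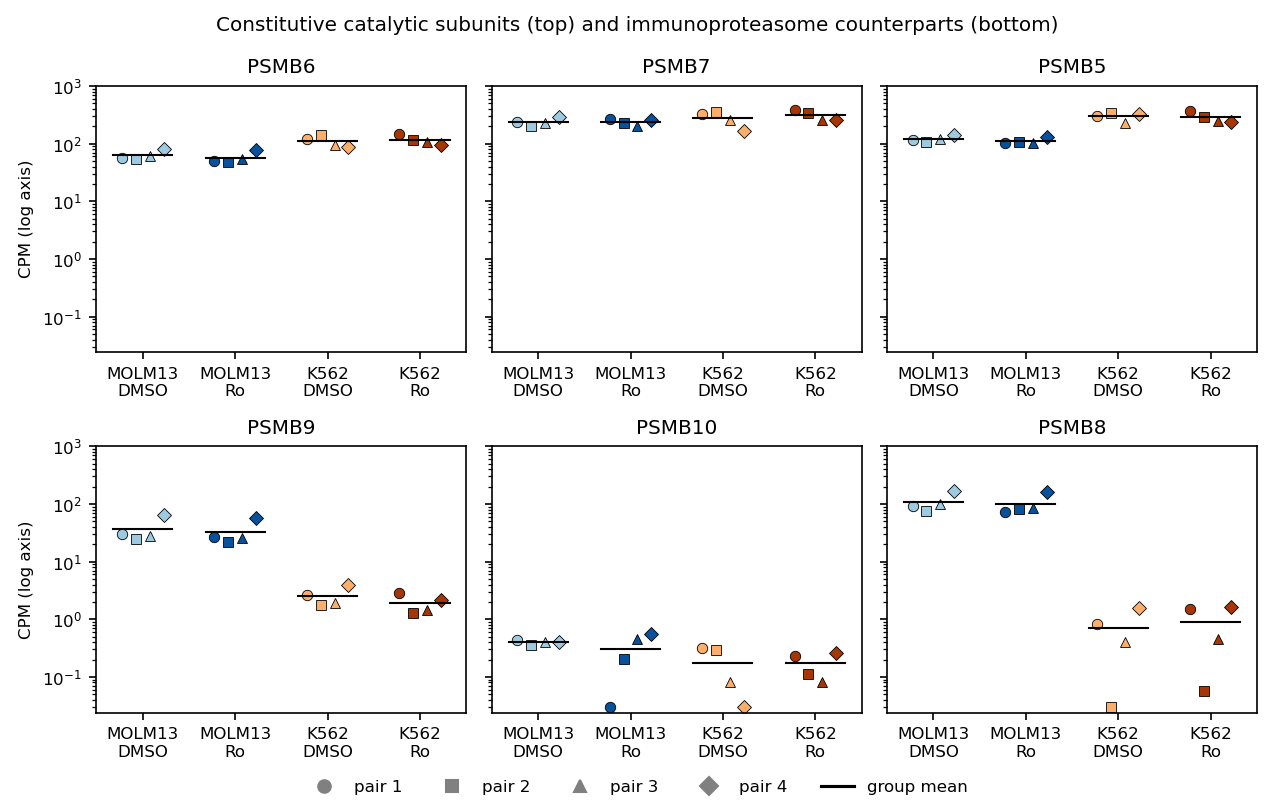
CPM (log axis) of the 3 constitutive catalytic subunits (top) and their immunoproteasome counterparts (bottom) in the 4 libraries of each group; the marker shape gives the pair, the line is the group mean, and libraries at 0 are drawn at the bottom of the panel. PSMB8 sat between 73.1 and 170 CPM in all MOLM13 libraries and at or below 1.61 CPM in all K562 libraries.

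Genes of antigen presentation that are known to be induced with the immunoproteasome stood in the same order in most cases. Of the 10 tested, 8 were higher in MOLM13, 1 was lower and 1 did not pass, against 21.1% higher and 20.3% lower among all genes. NLRC5, an activator of class I genes, was at 21.0 to 31.6 CPM in MOLM13 DMSO and 2.03 to 5.26 CPM in K562 DMSO (log2 fold change 2.74 ± 0.28 SE, adjusted p = 3.59e-06 in edgeR). HLA-B was at 463 to 531 CPM in MOLM13 DMSO and at most 0.291 CPM in K562 DMSO, from 1 to 6 counts. The gene that was lower was TAP2, a subunit of the peptide transporter, at 13.7 to 32 CPM against 30.3 to 42.2 CPM (log2 -0.94 ± 0.28 SE, adjusted p = 0.0159 in edgeR). TAP1, its partner, was listed at 0 in both lines. With Ro none of this list passed in edgeR, with or without the block, of 10 tested in MOLM13 and 8 in K562.

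Among the activators, PSME1 and PSME2 form the interferon-inducible cap. PSME1 was at 139, 113, 129 and 178 CPM in MOLM13 DMSO and at 66.0, 34.0, 40.7 and 76.8 CPM in K562 DMSO, without overlap. It was 2.58-fold higher in MOLM13 (log2 fold change 1.37 ± 0.28 SE, adjusted p = 1.33e-03 in edgeR). PSME2 was low in both lines, at 2.84 to 8.28 CPM and 2.08 to 8.72 CPM, and did not pass (log2 0.45 ± 0.44 SE, adjusted p = 0.445 in edgeR). A second row with the symbol PSME2, at 0 counts throughout, carries an identifier that RefSeq gives to MIR7703, and its part in the PSME2 count was not tested.

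PSME3, a nuclear activator, and PSME4, a large single-chain activator, went the other way. PSME3 was at 47.5 to 65.9 CPM in MOLM13 DMSO and 87.4 to 114 CPM in K562 DMSO (log2 -0.87 ± 0.20 SE, adjusted p = 3.45e-03 in edgeR). PSME4 was at 85.6 to 114 CPM against 98.1 to 216 CPM (log2 -0.80 ± 0.25 SE, adjusted p = 0.0198 in edgeR), and only K562 DMSO 4, at 98.1 CPM, lay inside the MOLM13 range. PSMF1, an inhibitor, was at 44.5 to 51.5 CPM and 43.1 to 51.7 CPM, with a log2 difference of 0.02 ± 0.18 SE.

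PSMC2, a base ATPase, was at 83.5, 74.8, 76.5 and 105 CPM in MOLM13 DMSO and at 42.4, 39.2, 27.8 and 26.5 CPM in K562 DMSO. It was 2.52-fold higher in MOLM13 (log2 fold change 1.33 ± 0.23 SE, adjusted p = 3.15e-04 in edgeR), the only base gene of 8 to pass. PSMC1, another base ATPase, did not pass (log2 0.61 ± 0.41 SE, adjusted p = 0.26 in edgeR), with 191 to 298 CPM in MOLM13 DMSO and 204, 169, 188 and 34.3 CPM in K562 DMSO. The low value is K562 DMSO 4, without which the log2 difference was 0.29. The other 6 base genes were lower in MOLM13 in the estimate, by at most 0.53 on the log2 scale, and none passed.

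PSMD5, a chaperone of the base, was at 15.3, 17.1, 18.2 and 21.1 CPM in MOLM13 DMSO and at 64.6, 71.8, 62.1 and 81.8 CPM in K562 DMSO. It was 3.87-fold lower in MOLM13 (log2 fold change -1.95 ± 0.20 SE, adjusted p = 3.25e-06 in edgeR), the largest fall among the 42 genes. PSMB2, a beta subunit without catalytic activity, was at 70.1 to 86.4 CPM against 212 to 263 CPM (log2 -1.62 ± 0.20 SE, adjusted p = 1.73e-05 in edgeR). PSMA5, of the alpha ring, was at 42.1 to 55.2 CPM against 105 to 128 CPM (log2 -1.18 ± 0.19 SE, adjusted p = 2.45e-04 in edgeR). In each of these 3 genes the lines did not overlap. PSMA8, an alpha subunit known from testis, was at 105 to 253 CPM in MOLM13 DMSO and 110 to 184 CPM in K562 DMSO. Its log2 difference was 0.19 ± 0.28 SE (adjusted p = 0.622 in edgeR), and it is named here after its values were seen. PSMA8 overlaps the RefSeq gene DHFRP1, though not at the end where this assay reads. Whether these counts come from PSMA8 mRNA alone was not tested.

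Of the alpha-ring chaperones, which work as the pairs PSMG1 with PSMG2 and PSMG3 with PSMG4, only PSMG1 passed. PSMG1 was at 48.5, 46.9, 58.0 and 121 CPM in MOLM13 DMSO and at 224, 207, 212 and 145 CPM in K562 DMSO (log2 -1.51 ± 0.31 SE, adjusted p = 1.57e-03 in edgeR). Its partner PSMG2 was at nearly the same level in both lines, 29.3 to 48.1 CPM and 30.5 to 42.4 CPM (log2 -0.07 ± 0.22 SE, adjusted p = 0.827 in edgeR). PSMG3 (log2 -0.62 ± 0.28 SE) and PSMG4 (log2 -0.59 ± 0.35 SE) had adjusted p of 0.0991 and 0.197. MOLM13 pair 4 was the highest MOLM13 library for all 4.

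**Figure D2:**
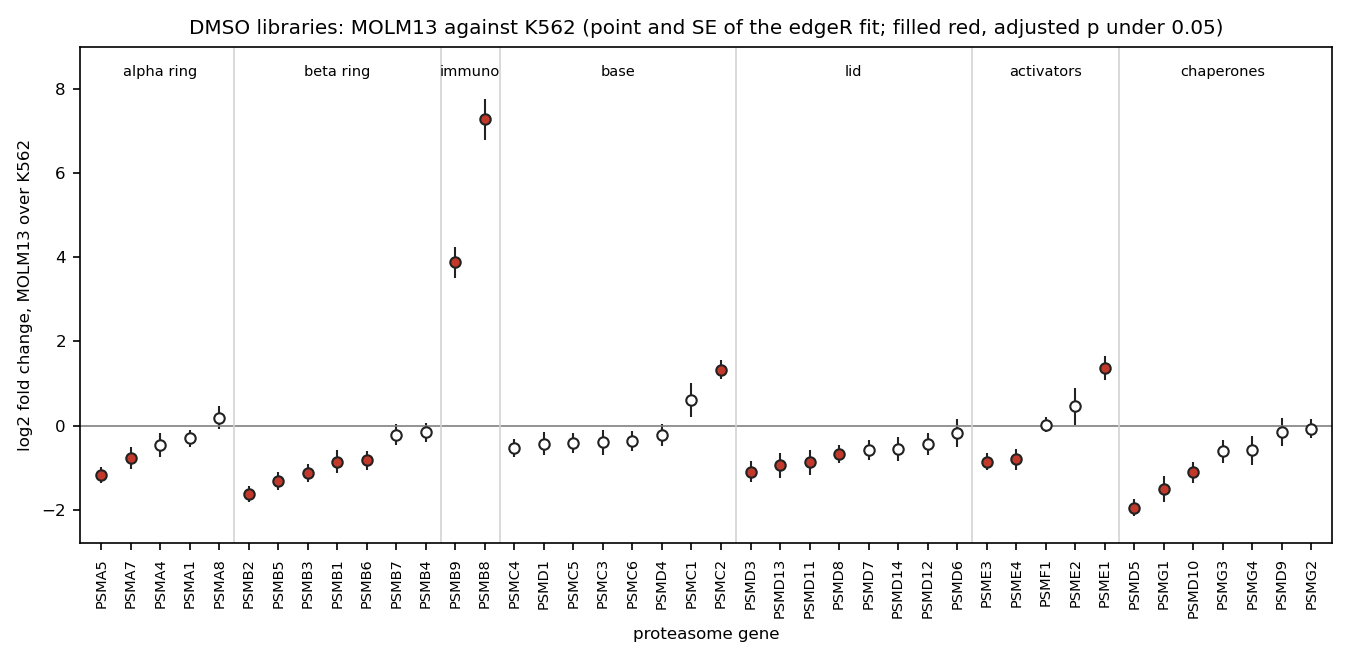
Log2 fold change of MOLM13 over K562 in the DMSO libraries for the 42 tested proteasome genes, grouped by role; points are edgeR estimates, bars are SE, and filled points passed an adjusted p of 0.05. PSMB8 and PSMB9 lie far above all other members, at 7.28 and 3.88, and the lid and beta-ring genes all lie below 0.

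The number of lower genes depended on the libraries and the scaling. In the 8 Ro libraries, 30 of 42 passed, 4 higher (9.52% against 26.8% of all genes) and 26 lower (61.9% against 27.5% of all genes). With total-count scaling of the DMSO libraries, 34 passed, 4 higher (9.52% against 13.2%) and 30 lower (71.4% against 32.8%), while the median of all genes itself moved to -0.41. Without MOLM13 DMSO 4 the count was 26, without K562 DMSO 4 it was 25, and without K562 DMSO 2 it was 15. Of the 8 base genes, 3 were called lower in the Ro libraries and 5 with total-count scaling of the DMSO libraries.

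The second comparison asked how proteasome genes changed in MOLM13 after 4 h with Ro. In the estimates, 33 of the 42 genes were lower and 9 higher, while 7501 of all 15031 genes were lower. The changes were small: the median log2 fold change was -0.08 and the range was -0.35 to 0.30. The median of all genes was 0.00. The median of the 42 was -0.03 with total-count scaling and -0.05 with upper-quartile scaling. It was -0.04 after a loess trend of fold change against mean level, fitted over all genes, was removed. In that case 13 of the 42 were higher, against 7466 of the 15031 genes. Without regard to pairs, none of the 42 passed in edgeR after Benjamini-Hochberg adjustment, as for all genes (0% of 15031). None of the 42 was under 0.05 before adjustment in edgeR or in DESeq2, and DESeq2 called none of them either. Same-numbered libraries varied together, and with the pair number as a block 1 member passed, the chaperone PSMG2, which fell. That is 2.38% of the members, against 2.11% of all genes called in either direction and 1.17% called lower. DESeq2 with the block also called PSMG2 alone among the members, against 1.3% of all genes called lower. In the blocked edgeR fit, 7 of the 42 had an unadjusted p under 0.05, 6 lower and 1 higher, as did 1450 and 1135 of the 15031 genes.

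PSMG2 was at 29.3, 30.0, 33.2 and 48.1 CPM in the DMSO libraries of pairs 1 to 4 and at 19.1, 24.0, 25.9 and 40.7 CPM in the Ro libraries. Every Ro library was lower than its DMSO partner, but the groups overlapped because both libraries of pair 4 were higher than the rest. The changes within pairs were -0.61, -0.32, -0.36 and -0.24 on the log2 scale. With the pair block PSMG2 fell 1.27-fold (log2 fold change -0.35 ± 0.08 SE, adjusted p = 0.0321 in edgeR and 0.0264 in DESeq2). Without the block the fold was the same and the adjusted p was 0.9999. The call was lost in the blocked fit when pair 1, 2 or 3 was left out and under upper-quartile or total-count scaling, and 1 member still passed without pair 4. PSMG2 lies at chr18:12658738-12725740 on the plus strand (GRCh38.p14). It overlaps the RefSeq genes SPIRE1 and CEP76, though not at the end where this assay reads. The part of these neighbours in the PSMG2 counts was not tested. In the same fit 2 of the 10 MOLM13 markers, CEBPA and ELANE, were also called lower with Ro, against 1.17% of all genes. In the estimates 7 of the 10 markers were lower and 3 higher, and the part of any change in cell state was not tested.

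The other alpha-ring chaperones had smaller estimates that did not pass. PSMG4 was at 25.3, 26.0, 29.9 and 75.8 CPM in DMSO and at 19.6, 21.5, 23.6 and 66.4 CPM in Ro, lower in 4 of 4 pairs (blocked log2 -0.27 ± 0.08 SE, adjusted p = 0.0834 in edgeR). PSMG1 was at 48.5, 46.9, 58.0 and 121 CPM in DMSO and at 33.8, 41.9, 47.3 and 114 CPM in Ro, also lower in 4 of 4 pairs (blocked log2 -0.24 ± 0.08 SE, adjusted p = 0.123 in edgeR). In both genes pair 4 lay far above the other pairs. Without the block, leaving out MOLM13 DMSO 4 turned both estimates to higher with Ro, 0.28 for PSMG4 and 0.21 for PSMG1. PSMG3 was lower in 3 of 4 pairs (blocked log2 -0.09 ± 0.08 SE, adjusted p = 0.563 in edgeR).

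Of the base chaperones, PSMD5 was at 15.3, 17.1, 18.2 and 21.1 CPM in DMSO and at 11.1, 13.7, 15.0 and 18.6 CPM in Ro. It was lower in all 4 pairs, without passing the test (blocked log2 -0.28 ± 0.10 SE, adjusted p = 0.138 in edgeR). PSMD10 was lower in 3 of 4 pairs and PSMD9 higher in all 4 pairs, and neither passed. As a group, the 7 chaperones had a blocked median log2 fold change of -0.24, against 0.00 for all genes. Of the 7, 6 were lower and 1 higher, while 7462 of all 15031 genes were lower. In that edgeR fit 6 of the 42 members, 4 of them chaperones, were lower with an unadjusted p under 0.05. Among all genes 1450 of 15031 were lower at that p.

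**Figure D3:**
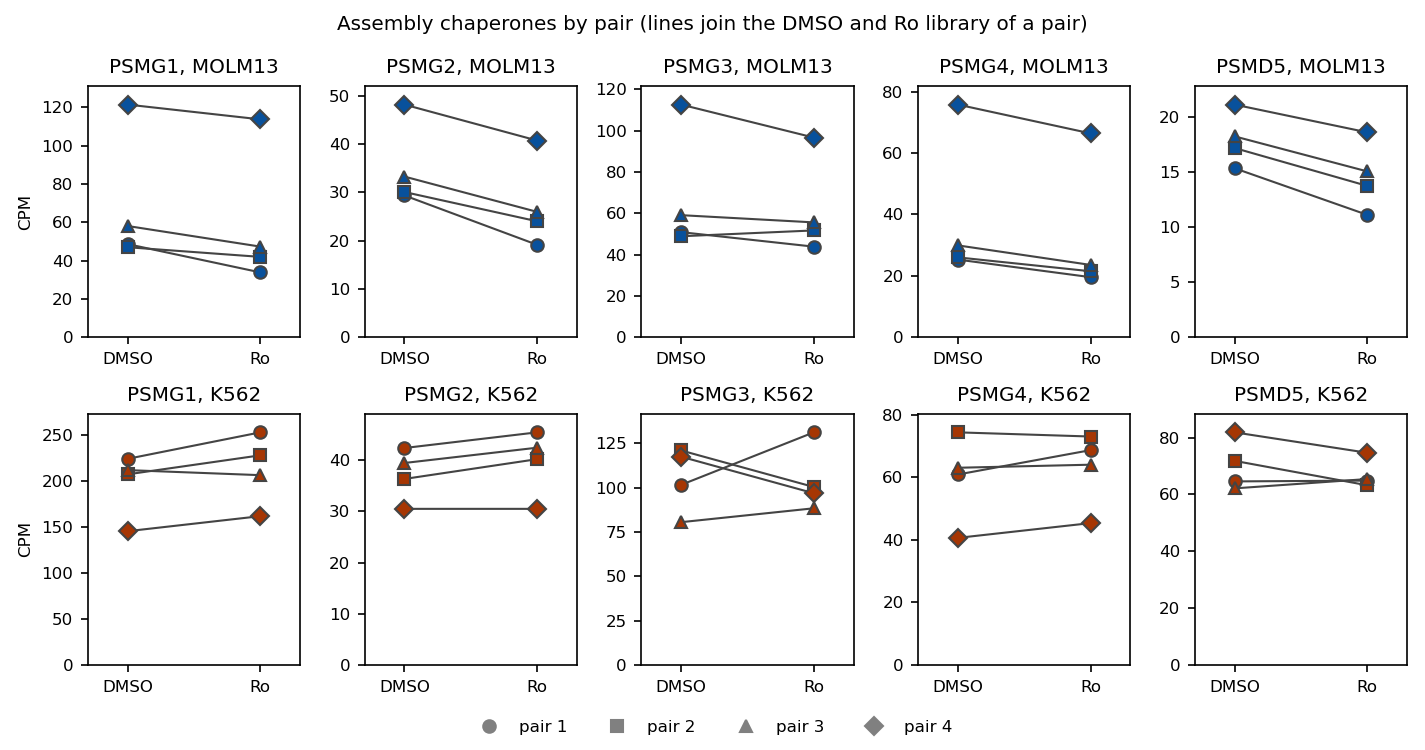
CPM of 5 assembly chaperones in DMSO and Ro; each line joins the 2 libraries of a pair and the marker gives the pair, with MOLM13 above and K562 below and every axis starting at 0. In MOLM13, all 4 lines of PSMG1, PSMG2, PSMG4 and PSMD5 slope down, with pair 4 above the others.

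2 members outside the chaperones were next by p-value. PSMD7, the lid partner of the deubiquitinase PSMD14, was at 138, 132, 167 and 184 CPM in DMSO and at 188, 161, 160 and 198 CPM in Ro, higher in 3 of 4 pairs (blocked log2 0.20 ± 0.08 SE, adjusted p = 0.173 in edgeR). PSME3 was at 47.5, 49.8, 53.0 and 65.9 CPM in DMSO and at 37.2, 46.6, 46.5 and 59.8 CPM in Ro, lower in all 4 pairs (blocked log2 -0.17 ± 0.07 SE, adjusted p = 0.24 in edgeR). The groups overlapped in both genes.

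The catalytic subunits differed little. Blocked log2 fold changes were -0.10 ± 0.07 SE for PSMB5, -0.12 ± 0.07 SE for PSMB6 and 0.01 ± 0.07 SE for PSMB7. The immunoproteasome subunits PSMB8 (-0.13 ± 0.08 SE) and PSMB9 (-0.15 ± 0.08 SE) were of the same size, and none of the 5 passed in edgeR (adjusted p 0.337 to 0.952). PSMB9 was lower in 4 of 4 pairs, at 26.9, 22.0, 25.5 and 56.2 CPM in Ro, and PSMB8 in 3 of 4, at 73.1, 80.8, 84.9 and 159 CPM. PSMB10 was at 0, 0.203, 0.458 and 0.551 CPM in Ro, from 0 to 11 counts. The activators PSME1, PSME2 and PSME4 and the inhibitor PSMF1 had blocked log2 fold changes of -0.12 ± 0.07 SE, -0.09 ± 0.17 SE, -0.04 ± 0.07 SE and -0.01 ± 0.07 SE.

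By pair, the median log2 change of the 42 genes was -0.07, 0.02, -0.15 and -0.10 in pairs 1 to 4, against -0.01 to -0.02 for all genes. Pair 2 differed from the others, with 23 genes higher and 19 lower. 11 of the 42 (26.2%) were lower in all 4 pairs, against 14.9% of all genes tested: PSMB4, PSMB6, PSMB9, PSMC6, PSMD8, PSME1, PSME3, PSMD5, PSMG1, PSMG2 and PSMG4. 1 of the 42 (2.38%), PSMD9, was higher in all 4 pairs, against 10.2% of all genes tested. By role, the blocked medians were -0.05 for the alpha ring, -0.10 for the beta ring, -0.06 for the base, -0.01 for the lid and -0.09 for the activators. The size of the unblocked median rested on pair 4: it was 0.05 without MOLM13 DMSO 4 and -0.24 without MOLM13 Ro 4, and in the blocked fit it was -0.07 with all pairs and -0.04 without pair 4.

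The third comparison asked the same of K562. In the estimates, 34 of the 42 genes (81.0%) were higher and 8 lower with Ro, against 54.2% of all genes higher. The median log2 fold change was 0.09 against 0.02 for all genes. With the trend on mean expression removed, 25 of the 42 were higher, against 8369 of the 15227 genes. The median was then 0.03 against 0.02 for all genes. None passed in edgeR without the block or with it, as for all genes (0% of 15227 in both fits), nor in DESeq2 with or without the block. None of the 42 was under 0.05 before adjustment in either edgeR fit. With pairs 1 and 3 alone, which leaves out both small libraries, again none passed and the median was 0.11. The median was 0.01 with total-count scaling, and it was -0.03 without K562 Ro 1 and -0.01 without K562 DMSO 4.

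The pairs differed. The median log2 change was 0.23 in pair 1, where 41 of 42 genes were higher, and -0.14 in pair 2, where 29 were lower. It was 0.06 in pair 3 and 0.16 in pair 4. 6 of the 42 (14.3%) were higher in all 4 pairs, against 6.84% of all genes tested: PSMA5, PSMB8, PSMD7, PSMD12, PSME4 and PSMG2. Any value above 0 was counted. PSMG2 was at 30.5 CPM in both libraries of pair 4, a change of 0.00. PSMB8 went from 0 counts in DMSO to 1 count in Ro in pair 2, under the floor of 3 counts. Neither gene was thus measurably higher in every pair. None (0%) was lower in all 4 pairs, against 4.65% of all genes tested.

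**Figure D4:**
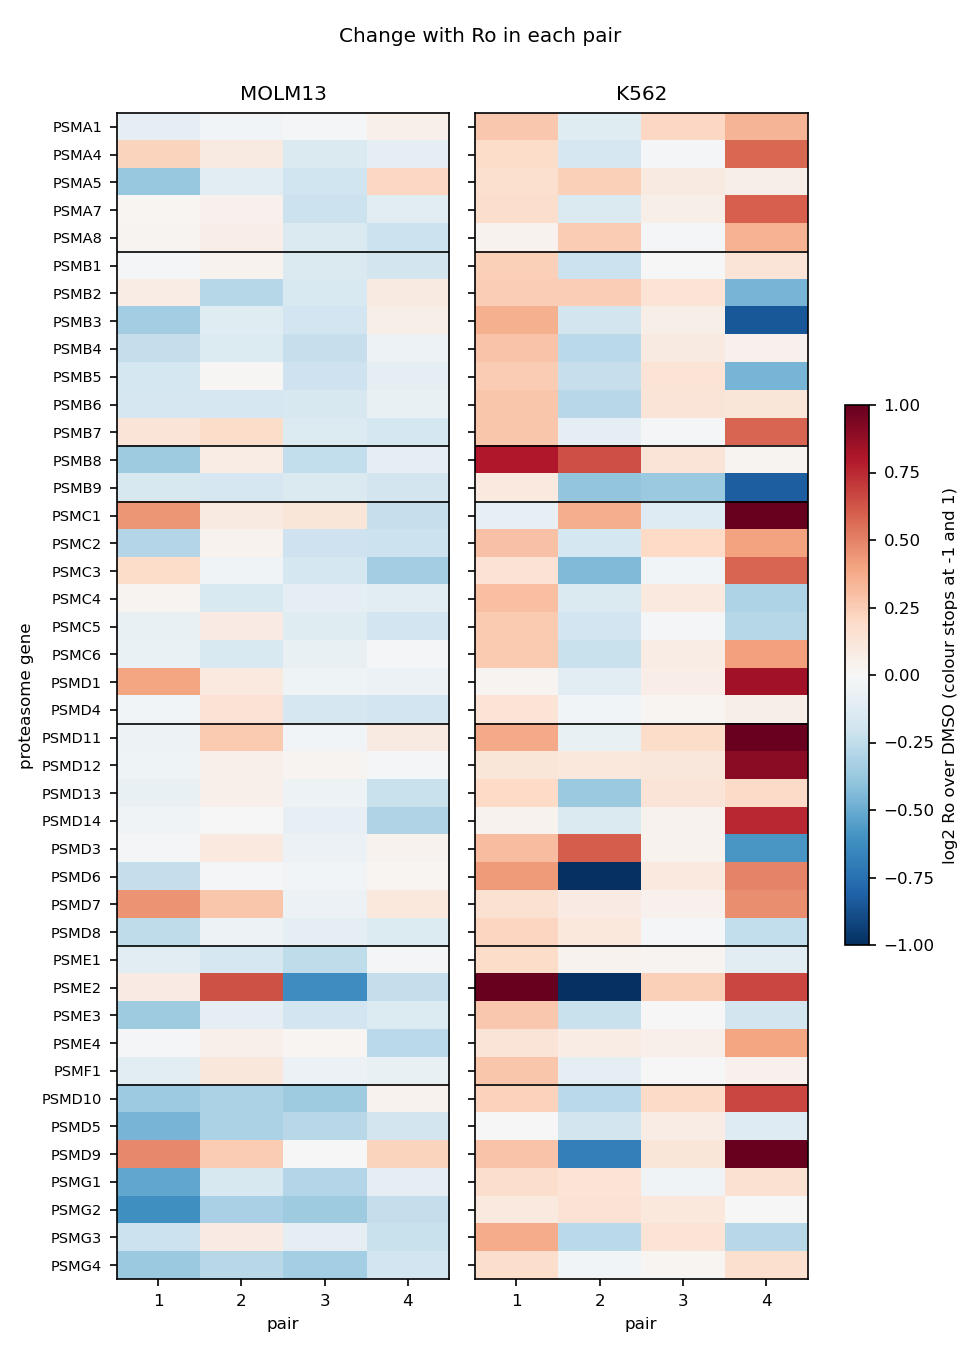
Log2 change with Ro over DMSO within each pair for the 42 tested genes, in the order alpha ring, beta ring, immunoproteasome, base, lid, activators and chaperones, for MOLM13 (left) and K562 (right); red is higher and blue lower with Ro. The chaperone rows of MOLM13 are mostly blue, and in K562 pair 1 is mostly red, pair 2 mostly blue and pair 4 the most uneven.

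The 3 smallest p-values in K562 belonged to PSMD11, PSMD12 and PSMC1, each of which was lowest in K562 DMSO 4. PSMD11, a lid scaffold, was at 407, 493, 325 and 169 CPM in DMSO and at 529, 468, 370 and 336 CPM in Ro (blocked log2 fold change 0.37 ± 0.19 SE, adjusted p = 0.947 in edgeR). PSMD12, also of the lid, was at 119, 118, 96.7 and 48 CPM in DMSO and at 130, 127, 105 and 89.7 CPM in Ro (0.31 ± 0.17 SE). Its changes in pairs 1 to 3 were 0.12, 0.10 and 0.11 on the log2 scale, and that in pair 4 was 0.90. Those of PSMD11 were 0.38, -0.07, 0.19 and 0.99. Without K562 DMSO 4 the unblocked log2 fold change was 0.07 for PSMD11, against 0.30 with it, and 0.03 for PSMD12, against 0.25.

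PSMC1 was at 204, 169, 188 and 34.3 CPM in DMSO and at 193, 218, 172 and 143 CPM in Ro, a change of 2.05 in pair 4 and of -0.08, 0.37 and -0.13 in the others. Without K562 DMSO 4 its unblocked log2 fold change was -0.04. PSMC2 was at 42.4, 39.2, 27.8 and 26.5 CPM in DMSO and at 52.0, 34.7, 31.9 and 35.1 CPM in Ro (blocked log2 fold change 0.19 ± 0.15 SE). PSMD7 was higher in 4 of 4 pairs, with changes of 0.15, 0.08, 0.04 and 0.46 (0.19 ± 0.14 SE). The groups overlapped in all 3 genes.

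The immunoproteasome subunits stayed low in K562 with Ro. PSMB9 was at 2.81, 1.3, 1.46 and 2.13 CPM, against 2.62, 1.74, 1.92 and 3.86 CPM in DMSO (blocked log2 fold change -0.36 ± 0.26 SE, adjusted p = 0.947 in edgeR). PSMB8 was at 1.52, 0.0567, 0.446 and 1.61 CPM, from 20, 1, 11 and 49 counts, and its log2 fold change of 0.43 ± 0.36 SE rests on these few counts. PSMB10 was at 0.0812 to 0.262 CPM with Ro. In the same line, the blocked log2 fold changes of the chaperones PSMG1 to PSMG4 were 0.11 ± 0.13 SE, 0.09 ± 0.13 SE, -0.00 ± 0.16 SE and 0.09 ± 0.13 SE, and those of PSMB5, PSMB6 and PSMB7 were -0.07 ± 0.17 SE, 0.07 ± 0.14 SE and 0.19 ± 0.16 SE.

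Whether the change with Ro differed between the lines was tested as an interaction over all 16 libraries, where 43 members were tested because PSMB10 passed the count minimum. None of the 43 passed in edgeR without the block (0% of 16224 genes) or with it (0% of 16224 genes). 5, all lower, had an unadjusted p under 0.05 with the block and none without it, while 476 of the 16224 genes were lower and 499 higher at that p with the block, and no other tool was run on this test. The estimates were lower in MOLM13 than in K562 for 39 of 43 in the blocked fit, against 8593 of the 16224 genes. The median of the 43 was -0.17 against -0.03 for all genes. After the same trend was removed, the median was -0.03 against -0.01 for all genes. Then 17 of the 43 were higher, against 7901 of the 16224 genes. PSMG2 had a difference of -0.46 ± 0.14 SE on the log2 scale (adjusted p = 0.766 in edgeR), PSMG4 of -0.37 ± 0.13 SE and PSMG1 of -0.37 ± 0.15 SE. Thus PSMG2 passed in MOLM13 and not in K562, but its change was not shown to differ between them.

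Genes that work with the proteasome were counted from lists of partners, transcriptional regulators and ubiquitin genes. Of 10 partners, such as the ubiquitin receptor ADRM1 and the maturation factor POMP, none passed for Ro in either line in edgeR with or without the block, and their blocked medians were -0.01 in MOLM13 and 0.16 in K562. Between the lines, ADRM1 alone of the 10 passed, lower in MOLM13 (log2 -0.92 ± 0.25 SE, adjusted p = 0.0103 in edgeR). Among all genes 20.3% were lower and 21.1% higher.

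Of 8 regulators, which include the proteasome gene activator NFE2L1, its relative NFE2L2 and their small MAF partners, 1 passed for Ro in MOLM13. That call needed the block, where 2.11% of all genes were called in edgeR. MAFG was at 115, 86.6, 103 and 75.3 CPM in DMSO and at 128, 106, 111 and 111 CPM in Ro, higher in every pair (log2 fold change 0.30 ± 0.08 SE, adjusted p = 0.0491 in edgeR and 0.0659 in DESeq2). In K562, MAFG was at 85.8, 82.6, 79.2 and 30.5 CPM in DMSO and at 129, 120, 117 and 123 CPM in Ro, without overlap, but its adjusted p was 0.947 in the blocked edgeR fit. Its changes in K562 pairs 1 to 4 were 0.59, 0.54, 0.57 and 2.01 on the log2 scale, the last against K562 DMSO 4. Between the lines 2 of the 8 regulators were lower in MOLM13, the protease DDI2 and the deglycosylase NGLY1, and none was higher. Among all genes 20.3% were lower and 21.1% higher. In the blocked edgeR estimates for Ro, 7 of the 8 were higher in MOLM13, against 50.4% of all genes. Their median was 0.11 against 0.00 for all genes. In K562 all 8 were higher, against 53.5% of all genes, with a median of 0.20 against 0.02 for all genes. With Ro, NFE2L1 was at log2 0.00 ± 0.08 SE in MOLM13 and 0.19 ± 0.13 SE in K562 and did not pass.

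Between the lines 4 of 13 ubiquitin and shuttle genes were lower in MOLM13 and none higher, against 20.3% lower and 21.1% higher among all genes. Among these, the unfolding cofactor UFD1L was at 45.4 to 59.7 CPM in MOLM13 DMSO and 250 to 381 CPM in K562 DMSO (log2 -2.56 ± 0.22 SE, adjusted p = 6.87e-07 in edgeR).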

How the data were processed

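RNA of 16 cell line libraries (4 each of MOLM13 and K562 with DMSO or Ro) was sequenced from the 3′ ends of mRNAs with spike-ins added. The authors deposited raw counts per gene, 25221 rows named by Entrez identifier and symbol. The submitters' processing notes name Trim Galore, STAR 2.5.3a, SAMtools 1.5 and the build hg38, while the counting program, annotation and strand setting are not given in the sources used here.

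Groups and pair numbers were taken from the sample titles. Members and gene lists were chosen with earlier results of these data known. Genes with at least 10 counts in 4 of the 8 libraries of a comparison were tested with edgeR 4.0.16 (quasi-likelihood, TMM, R 4.3.3), without the pair number, each line apart. P-values were Benjamini-Hochberg adjusted over all genes tested and called at 0.05. The interaction used all 16 libraries. DESeq2 1.42.0, other scalings, other count minimums, a blocked fit and left-out libraries were alternatives, and the fits were tested on simulated data. Changes within pairs used a prior count of 2.

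The pairs are those numbered in the sample titles. Deviations from group means over all genes tested were correlated between same-numbered libraries. The correlations were 0.624, 0.441, 0.385 and 0.831 in MOLM13 and 0.349, 0.109, 0.416 and 0.244 in K562. Libraries with unlike numbers were not compared, so these values alone do not decide the pairing.

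Named genes were PSMB5 to PSMB10, PSME1 to PSME4, PSMF1 and PSMG1 to PSMG4, the 6 members with the smallest blocked p for Ro in each line, and the 4 outside the immunoproteasome with the smallest p in each direction between the lines. Other pathway genes came from the lists, with examples chosen after their values were seen. The Ro comparison of the ubiquitin list is not reported here. PSMB10, too low to test, is given by its level. Sequences and coordinates are RefSeq's on GRCh38.p14, and all 54 rows matched RefSeq by identifier. Totals ran from 3143129 to 43571060 counts. Levels in the smallest library are therefore the least precise, and floors cover counting error only.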

Additional observations from a re-analysis of the deposited data

Results flagged for a closer look

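In 123 groups of 4 libraries, 18 had 1 library far from the other 3 (Dixon's test at its 95% critical value), and chance flags about 1 in 20 single groups. The groups come from the same 16 libraries and some are sums that include flagged genes, so the 18 flags are not independent. Most flags were from MOLM13 pair 4. In MOLM13 DMSO 4, PSMB9 was at 63.6 CPM (others 24.6 to 30.1), PSMG1 at 121 CPM (others 46.9 to 58.0), PSMG3 at 113 CPM (others 48.9 to 59.1) and PSMG4 at 75.8 CPM (others 25.3 to 29.9). In MOLM13 Ro 4, PSMB8 was at 159 CPM (others 73.1 to 84.9), PSMB9 at 56.2 CPM, PSME2 at 7.01 CPM, PSMG1 at 114 CPM (others 33.8 to 47.3) and PSMG4 at 66.4 CPM (others 19.6 to 23.6).

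Summed levels of roles stood apart in the same pair. In MOLM13 Ro 4 the sum was 6253 CPM for all proteasome genes, 1125 CPM for the alpha ring, 216 CPM for the immunoproteasome, 1638 CPM for the lid and 382 CPM for the activators. In MOLM13 DMSO 4 it was 1368 CPM for the base and 396 CPM for the chaperones.

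Outside that pair, PSMC2 was at 52.0 CPM in K562 Ro 1 (others 31.9 to 35.1), and PSMA5 was at 42.1 CPM in MOLM13 DMSO 2 (others 53.1 to 55.2).

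The change of PSMG2 with Ro was -0.46 on the log2 scale in MOLM13 minus K562. Every MOLM13 pair was lower with Ro and no K562 pair was (pair 4 changed by 0.00), but the blocked interaction in edgeR did not pass (adjusted p = 0.766), so the lines were not shown to differ.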

How the results depend on the processing

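With the replicate block, 1 member was called in MOLM13 (PSMG2), in edgeR and in DESeq2, against 0 without it. This blocked count was 0 under upper-quartile and 0 under total-count scaling, both added after seeing the data, and ran from 0 to 1 when 1 pair was left out (0 without pair 1, 2 or 3). The block changed no other member's call. The cause of these differences was not tested.

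When 1 library was left out, the unblocked MOLM13 median ran from -0.24 (without Ro 4) to 0.0525 (without DMSO 4), PSMG4 from -0.85 to 0.28 and PSMG1 from -0.72 to 0.21, the higher values without MOLM13 DMSO 4. In K562 the median ran from -0.03 to 0.19, PSMC1 from -0.0403 (without DMSO 4) to 0.44 and PSMC2 from -0.0164 (without Ro 1) to 0.28. PSMC1 was -0.12 with pairs 1 and 3 alone under the block. Between the lines, 34 members were called with total-count scaling, against 20, and 14 to 26 when 1 library was left out.

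Depth limits PSMB8 and PSMB10 in K562, where a level under 0.872 CPM cannot be told from 0 in the smallest library.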
